A study of Mus musculus with 11 samples.

Results

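The 32 genes described here are glycolytic enzymes together with targets and sensors of the hypoxia-inducible factor (HIF), taken by symbol from a list. All 32 were found among the 37310 gene identifiers of the series, and all 32 passed the filter on low counts, which left 14172 genes. They comprise 14 glycolytic enzyme genes (Hk1, Hk2, Gpi1, Pfkl, Pfkp, Pfkm, Aldoa, Tpi1, Gapdh, Pgk1, Pgam1, Eno1, Pkm, Ldha), 2 transporter genes (Slc2a1, Slc16a3) and 4 genes that act on mitochondria (Pdk1, Ndufa4l2, Higd1a, Bnip3). The others are 3 secreted or surface targets (Vegfa, Adm, Car9), 2 collagen prolyl hydroxylase genes (P4ha1, P4ha2), 3 stress targets (Ndrg1, Ddit4, Ankrd37) and 4 oxygen-sensing genes (Hif1a, Epas1, Egln1, Egln3).

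The measurements came from 11 bulk RNA libraries of small-intestinal organoids, which are epithelial cultures grown in a gel from isolated crypts. Crypts came from mice named mouse_283 and mouse_285, and all cultures carried the Lgr5-EGFP-IRES-creERT2 knock-in, in which the stem cell gene Lgr5 drives a green fluorescent protein and an inducible Cre recombinase. The labels name no inducer, gene deletion or oxygen setting. Early cultures were at passages 2, 3 and 4 of mouse_283 and passages 2 and 4 of mouse_285 (n = 5), and late cultures at passages 11, 12 and 13 of both mice (n = 6). The design text names the effects of extended culture and of donor age as its subjects. Ages of 4 and 24 months are tied to no mouse, so a difference between the mice cannot be told apart from age. Libraries of successive passages share a mouse, so p-values reflect only how libraries of these 2 mice vary. No label gives a batch, so passage stage and batch cannot be told apart.

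Glycolysis splits glucose into pyruvate, and lactate dehydrogenase turns pyruvate into lactate when it does not enter mitochondria. HIF is a pair of proteins whose alpha subunit is marked for destruction by prolyl hydroxylases while oxygen is present. When oxygen is scarce the alpha subunit persists, binds short DNA motifs (ACGTG or GCGTG) and raises genes for glucose uptake, glycolysis, lactate export and vessel growth. The intestinal epithelium lies across a steep oxygen gradient between its blood supply and the lumen, and HIF in these cells is known for its part in barrier function.

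The libraries held 15114132 to 28949911 reads in genes. A count of 3 reads, the limit that a count of 0 allows, corresponds to 0.104 to 0.198 CPM (read counts per 1000000 reads in genes) and covers counting error only. Levels below are CPM scaled by the trimmed mean of M values (TMM), a factor that makes libraries comparable. Slopes on GC content were fitted to each gene's log2 deviation from its mean over the 11 libraries, so their sign is relative to the series. In 2 libraries, passages 3 and 4 of mouse_283, GC-rich genes read high relative to the other libraries. The slope there was 1.01 and 0.81 per 10 points, while it was 0.20 at passage 4 of mouse_285 and -0.42 to -0.08 elsewhere. Results are therefore also given without these 2 libraries and after a correction for GC content and transcript length. Epithelial markers summed to between 5933 and 13501 CPM, with the highest sum at passage 3 of mouse_283. Many listed immune, fibroblast, endothelial and pericyte markers were under 1 CPM in all 11 libraries. These were 5 of 8 immune genes (Ptprc among them), 6 of 7 fibroblast genes and 3 of 6 endothelial and pericyte genes. The rest of these lists went above 1 CPM in at least 1 library. Itgam reached 13.5 CPM and Cd68 7.5 CPM, both at passage 2 of mouse_283. Vim reached 15.8 CPM at passage 13 of mouse_285, and Pdgfrb 4.48 CPM at passage 3 of mouse_283. Lyz2, Vwf and Rgs5 had lower maxima than these.

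Promoters of the members were searched for the core HIF motif, as ACGTG or GCGTG on either strand, in windows of 300 bases that run from 250 before to 50 after each RefSeq start (build GRCm38.p6). Windows were found for 29 members, 41 in all, while Ndufa4l2, Ndrg1 and Epas1 had none in the table. At least 1 window with either motif belonged to 27 of these 29 genes (93.1%), against 46.7% of all 27025 genes in the table, and the members without were Gpi1 and Tpi1. By window the shares were 80.5% of 41 and 43.8% of 32851. Many members were listed as HIF targets, both motifs contain CG, and the shares were not matched for the GC content of the windows. The shares are therefore no test of enrichment. Windows of 2 lactate genes are printed in lower case with each match in capitals. Slc16a3, the gene of a lactate exporter, is shown as a member that passed the test below, and Ldha, which encodes the main lactate dehydrogenase subunit, for its number of matches. The Slc16a3 window, chr11:120948817-120949116 on the plus strand, holds ACGTG 2 times. Ldha has 2 windows in the table, of which the one with more matches is printed and the other holds ACGTG 0 times and GCGTG 2 times. The printed Ldha window, chr7:46845554-46845853 on the plus strand, holds ACGTG 5 times and GCGTG 2 times, where CACGTG carries the motif on both strands and counts as 2 overlapping matches. A match describes the letters of the window and does not show that a factor binds there.
Slc16a3: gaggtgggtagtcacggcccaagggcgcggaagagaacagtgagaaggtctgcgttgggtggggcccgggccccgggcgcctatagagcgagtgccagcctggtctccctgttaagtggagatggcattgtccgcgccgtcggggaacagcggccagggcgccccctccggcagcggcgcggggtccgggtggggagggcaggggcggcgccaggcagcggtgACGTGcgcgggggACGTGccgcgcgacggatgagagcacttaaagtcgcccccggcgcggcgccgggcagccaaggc
Ldha: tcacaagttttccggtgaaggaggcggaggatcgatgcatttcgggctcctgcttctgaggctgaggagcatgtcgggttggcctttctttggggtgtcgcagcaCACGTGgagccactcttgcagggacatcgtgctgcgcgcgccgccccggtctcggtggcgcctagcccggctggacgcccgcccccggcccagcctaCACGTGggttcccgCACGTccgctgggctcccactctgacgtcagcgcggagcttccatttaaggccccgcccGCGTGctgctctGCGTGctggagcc

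Of the 32 members, 3 were lower in late than in early passages (Ndufa4l2, Slc16a3 and Ndrg1) and 0 were higher. The test was edgeR's quasi-likelihood test with the mouse in the model and Benjamini-Hochberg adjustment over 14172 genes at a threshold of 0.05. Among all tested genes 2.34% were lower and 0.706% higher, or 3.05% changed. At an unadjusted p under 0.05 there were 15 members, all of them lower late, against 23.6% of all genes in either direction. The median log2 fold change of the members was -0.38, with 20 negative and 12 positive, and over all tested genes it was -0.02, with 51.4% negative. The plot of fold changes shows that glycolytic enzymes and transporters made up most of the negative values. The other groups lay mostly around or above 0, except for Ndufa4l2 (-4.33), Ndrg1 (-0.61), P4ha2 (-0.44) and Car9 (-0.40). HIF targets thus lay on both sides of 0. The members' count depended on 1 library in particular. Without passage 2 of mouse_283, whose omission left passages 3 and 4 as the early set of that mouse, 21 members were called, 18 lower and 3 higher (Pdk1, Vegfa and Hif1a). In that fit 16.2% of all genes were lower and 18.5% higher, or 34.7% called. Without any other single library 1 or 2 members were called.

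**Figure D1:**
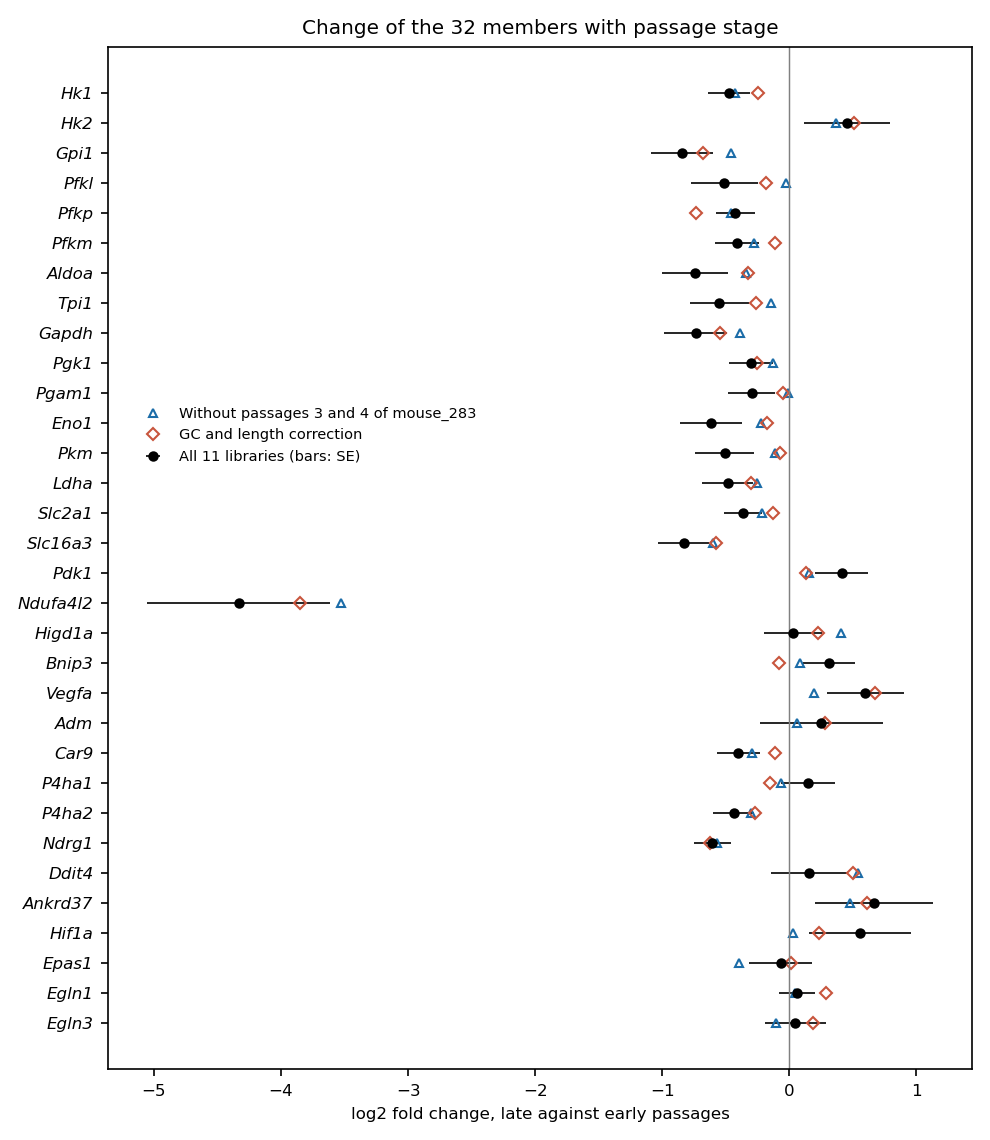
Log2 fold change of each of the 32 members, late against early passages. Black points are the fit on all 11 libraries with bars of 1 standard error (SE), blue triangles leave out passages 3 and 4 of mouse_283, and red diamonds are after correction for GC content and length. Ndufa4l2 lies far below the rest at -4.33, and the median of the glycolytic enzymes lies nearer to 0 under both alternatives (-0.24 and -0.25 against -0.50).

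Ndufa4l2 (ENSMUSG00000040280.9) encodes a mitochondrial protein related to a respiratory chain subunit, and is a HIF target known to lower oxygen use. In mouse_283 it stood at 22.7, 70.8 and 23.2 CPM at passages 2, 3 and 4 and at 1.59, 0.196 and 0.362 CPM at passages 11, 12 and 13. In mouse_285 it stood at 27.4 and 29.8 CPM at passages 2 and 4 and at 5.87, 4.87 and 3.47 CPM at passages 11, 12 and 13. Each early library was above each late one, and the late libraries of mouse_283 were all below those of mouse_285. The lowest library held 6 reads of the gene and the highest 1313.

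The log2 change of Ndufa4l2 was -4.33 (SE 0.72, adjusted p = 0.00892 by edgeR), which is 20.1-fold lower late and the largest change of the members. Within mouse_283 the log2 change was -5.79 (SE 0.74, adjusted p = 0.00358). Within mouse_285 it was -2.59 (SE 0.66), with an unadjusted p of 0.00219 and an adjusted p of 0.426 by edgeR, so it did not pass there. It was called within mouse_285 when passages 3 and 4 of mouse_283 were left out (-2.58, adjusted p = 0.0144) and without the filter on low counts (-2.56, adjusted p = 2.16e-07). The difference between the mice in this change was 3.20 (SE 0.96, unadjusted p = 0.0062, adjusted p = 0.99 by edgeR) and did not pass, though it did without that filter (3.18, adjusted p = 8.29e-05) and without passage 2 of mouse_283 (3.50, adjusted p = 0.0114). Without passage 3 of mouse_283, the highest library, the pooled change was -3.77 (adjusted p = 0.00697). It was -3.53 without passages 3 and 4 of that mouse and -3.85 after GC and length correction. The GC content of Ndufa4l2, 60.7%, is the highest of the members. DESeq2 gave -4.47 (SE 0.73) and withheld the p for this gene because of an outlier count. No 50-base stretch of its transcript occurs in another gene of the annotation used.

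**Figure D2:**
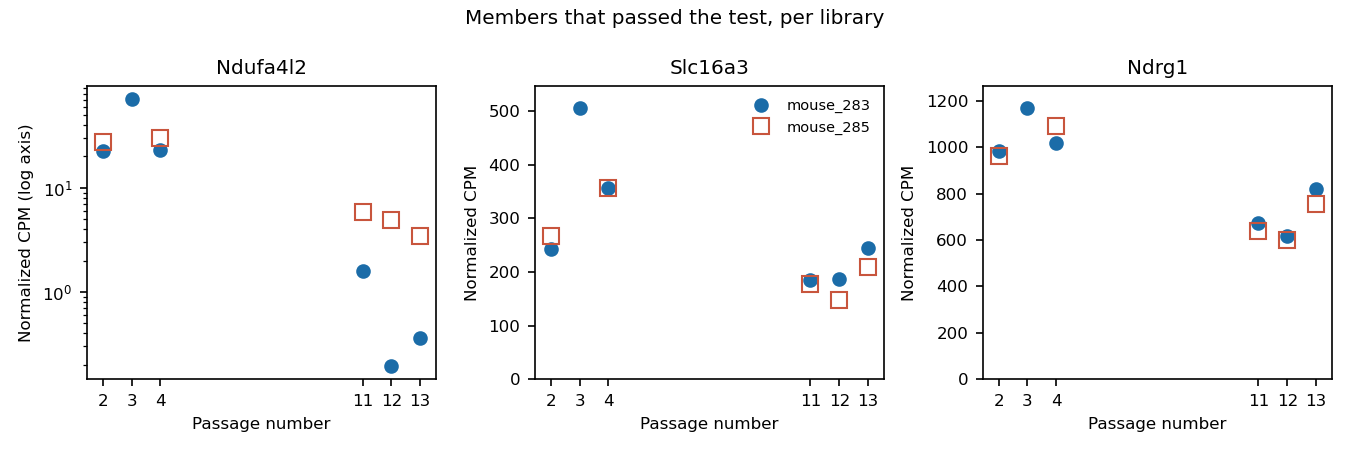
Normalized CPM of the 3 members past the test in each library against passage number, for mouse_283 (filled circles) and mouse_285 (open squares); the axis for Ndufa4l2 is logarithmic and the others start at 0. Early and late libraries do not overlap for Ndufa4l2 and Ndrg1, while for Slc16a3 passage 13 of mouse_283 (244.8 CPM) lies just above passage 2 of the same mouse (243.02 CPM).

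The transporter genes carry sugar into and lactate out of the cell. Slc16a3 (ENSMUSG00000025161.10) encodes MCT4, which exports lactate. It stood at 243.02, 507 and 357 CPM at passages 2, 3 and 4 of mouse_283 and at 267 and 357 CPM at passages 2 and 4 of mouse_285, and late libraries ran from 147 through a median of 186 to 244.8 CPM. The groups overlapped at a single pair of libraries. The log2 change was -0.83 (SE 0.20, adjusted p = 0.0426 by edgeR), which is 1.78-fold lower late, with -0.85 in mouse_283 and -0.81 in mouse_285. The call was lost when any library other than passage 2 of mouse_283 was left out, with adjusted p from 0.0523 without passage 2 of mouse_285 to 0.167 without passage 4 of mouse_285, while the change stayed between -0.95 and -0.66. After GC and length correction it was -0.58 (adjusted p = 0.0231). Leaving out passages 3 and 4 of mouse_283 gave -0.60 (adjusted p = 0.0646). Slc2a1 encodes GLUT1, which brings glucose into most cells. Its early libraries lay between 181 and 298 CPM and its late ones between 139 and 198 CPM, with overlap and a log2 change of -0.37 (SE 0.15, adjusted p = 0.171).

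Of the 3 stress targets, Ndrg1 passed the test and Ddit4 and Ankrd37 did not. Ndrg1 (ENSMUSG00000005125.6) encodes a cytoplasmic protein that is known to rise with hypoxia and cell stress. It stood at 986, 1172 and 1018 CPM at passages 2, 3 and 4 of mouse_283 and at 962 and 1094 CPM at passages 2 and 4 of mouse_285, and late libraries ran from 601 through a median of 656 to 823 CPM. All late libraries lay below all early ones. Its log2 change was -0.61 (SE 0.15, adjusted p = 0.0433 by edgeR), with -0.59 in mouse_283 and -0.63 in mouse_285. The change stayed between -0.67 and -0.55 over 17 alternatives, of which 6 called it. Leaving out passage 2 or passage 3 of mouse_283 kept the call, leaving out any of the other 9 libraries ended it, and the largest adjusted p was 0.166, without passage 4 of mouse_285.

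Late libraries all below early ones was the pattern of 2 members, Ndufa4l2 and Ndrg1, and of 3.51% of all genes. Within each mouse taken alone, 3 members showed it, P4ha2 besides, against 5.44% of all genes. No member had every late library above every early one, against 2.21% of all genes, and none did so within each mouse, against 3.99%. Among marker lists of other intestinal cells, the tuft cell list moved with stage in the same direction. Its 5 genes, all detected, summed to 18.5 to 24.4 CPM early and to 5.61 to 11.1 CPM late. The immune list summed to 10.2 to 23.0 CPM early and 7.74 to 13.97 CPM late. The part of either in the changes of the 3 members was not tested.

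Ddit4 encodes REDD1, an inhibitor of the growth kinase mTORC1. It was highest at passage 4 of mouse_283 (563.5 CPM) and lowest at passage 2 of that mouse (140.1 CPM), with late libraries between 276 and 392 CPM and a log2 change of 0.16 (SE 0.30, adjusted p = 0.748). Ankrd37 encodes an ankyrin repeat protein used as a marker of HIF activity. It was at 4.10 CPM at passage 3 of mouse_283 and at 2.91 CPM at passage 4 of mouse_285, against 13.1 to 24.8 CPM in the other 9 libraries. Its log2 change was 0.66 (SE 0.47, adjusted p = 0.365).

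The 14 glycolytic enzyme genes had mostly negative fold changes late, none of which passed the main test in edgeR. Adjusted p ran from 0.0858 for Gpi1 to 0.397 for Hk2, and 9 had an unadjusted p under 0.05, all lower late, against 23.6% of all genes in either direction. DESeq2 called 1, Gpi1 (log2 change -0.85, adjusted p = 0.0234), and 5.99% of all genes as lower. Without the filter on low counts edgeR called 3 as lower, Gpi1 (adjusted p = 0.00691), Aldoa (0.0234) and Gapdh (0.0248), and 3.26% of all genes. Fold changes were negative for 13 of 14, with Hk2 as the exception, and the median was -0.50. The same 13 were negative in each of the 17 alternatives, which share most of their libraries, but the size moved with a few libraries. Some changes came close to 0, as far as -0.0085 for Pgam1 and -0.026 for Pfkl. The median came to -0.24 when passages 3 and 4 of mouse_283 were left out, and to -0.31 when passage 3 alone was. After GC and length correction it was -0.25, with Pfkp called (log2 change -0.74, adjusted p = 0.0452). Without passage 2 of mouse_283 it was -0.63 and 12 of the 14 were called lower, where 16.2% of all genes were.

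At the entry to the pathway, hexokinases phosphorylate glucose. Hk1, the form that most tissues express, had early values between 107.9 and 202 CPM and late values between 65.7 and 149 CPM (log2 change -0.47, SE 0.16, adjusted p = 0.128). Hk2, a form raised by HIF and insulin, stood at 104, 26.7 and 109 CPM at passages 2, 3 and 4 of mouse_283, at 81.5 and 33.4 CPM at passages 2 and 4 of mouse_285, and between 72.3 and 112 CPM late. Passage 3 of mouse_283 and passage 4 of mouse_285 were thus the libraries with the lowest levels, below all late ones. The log2 change of Hk2 was 0.45 (SE 0.34, adjusted p = 0.397).

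Gpi1, which turns glucose 6-phosphate into fructose 6-phosphate, stood at 1836, 5464 and 3042 CPM at passages 2, 3 and 4 of mouse_283 and at 2338 and 3322 CPM at passages 2 and 4 of mouse_285. Late libraries ran from 1534 through a median of 1739 to 1977 CPM. The log2 change was -0.84 (SE 0.25, adjusted p = 0.0858), the most negative of the enzymes, and 1 early library, passage 2 of mouse_283, lay within the late range. The phosphofructokinase genes, which set the pace of the pathway, had log2 changes of -0.51 (Pfkl, the liver form, SE 0.26), -0.42 (Pfkp, the platelet form, SE 0.15) and -0.41 (Pfkm, the muscle form, SE 0.17). Their adjusted p ran from 0.136 to 0.244, and early and late libraries overlapped for all of them.

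Aldoa, which splits the sugar into triose phosphates, stood at 3504, 11395 and 6092 CPM at passages 2, 3 and 4 of mouse_283, at 4374 and 6367 CPM at passages 2 and 4 of mouse_285, and from 3243 through 3562 to 4306 CPM late. Its log2 change was -0.74 (SE 0.26, adjusted p = 0.132). Gapdh, which starts the energy-yielding steps, stood at 5825, 17488 and 8160.4 CPM at passages 2, 3 and 4 of mouse_283, at 6726 and 8409.6 CPM at passages 2 and 4 of mouse_285, and from 4645 through 5266 to 6280.2 CPM late (log2 change -0.74, SE 0.25, adjusted p = 0.123). In both genes passage 2 of mouse_283 lay inside the late range and passage 3 of that mouse lay far above all other libraries.

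Tpi1, Pgk1, Pgam1, Eno1 and Pkm, which catalyse the steps from triose phosphate to pyruvate, had log2 changes of -0.55, -0.30, -0.30, -0.61 and -0.51. Ldha stood between 2614 and 5679 CPM early and between 2228 and 3180 CPM late (log2 change -0.48, SE 0.20, adjusted p = 0.177). Several of the enzyme genes share sequence with near-identical copies, so their counts are uncertain. Of the 50-base stretches of the transcript, 78.3% in Gapdh, 72.2% in Eno1, 68.0% in Pgk1, 41.5% in Pgam1, 36.3% in Pkm and 25.3% in Gpi1 occur in another annotated gene as well.

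**Figure D3:**
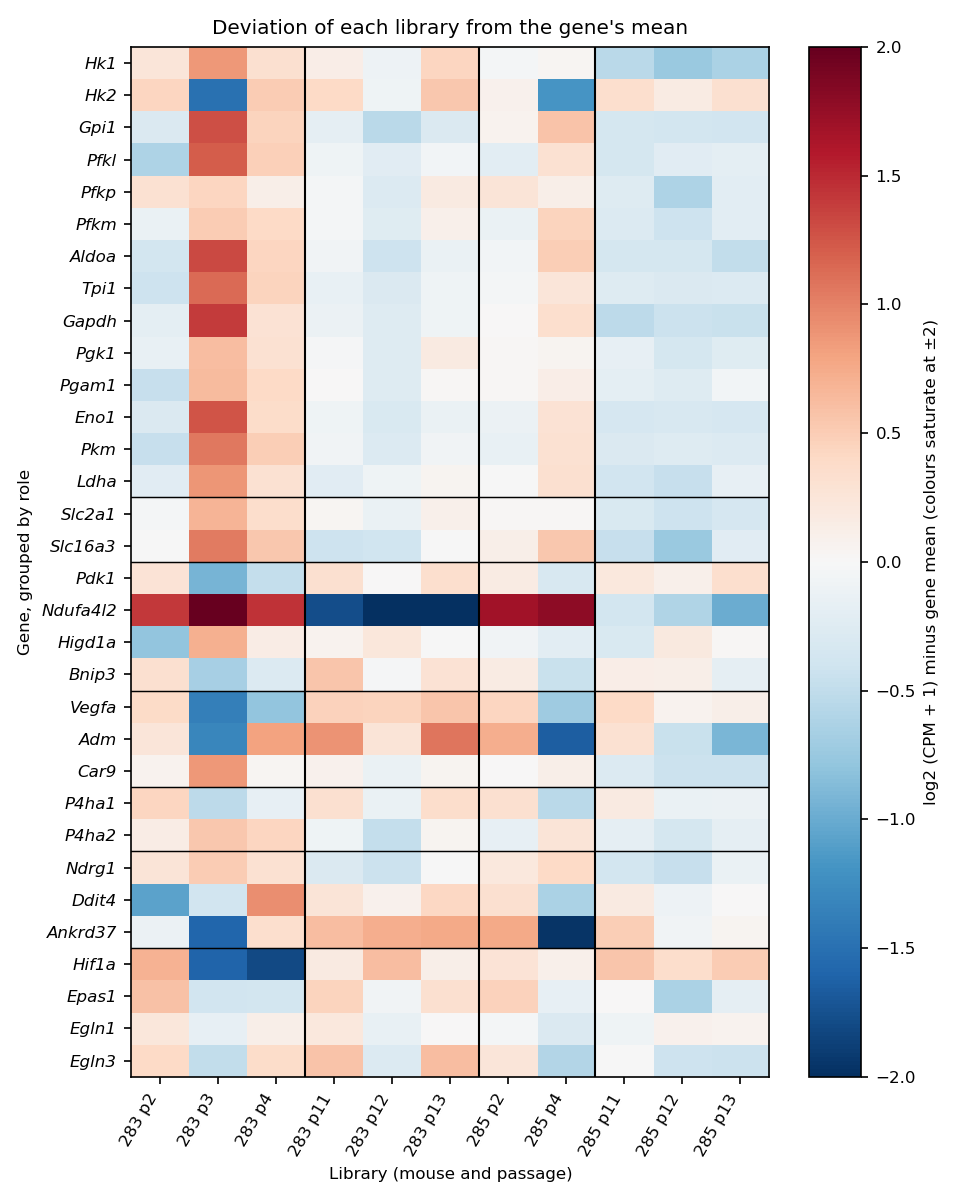
Deviation of log2(CPM + 1) from the gene's mean over 11 libraries, with genes in rows grouped by role and libraries in columns by mouse and passage; red is above and blue below the mean, and colours saturate at 2. Passage 3 of mouse_283 is the highest library for 13 of the 14 glycolytic enzymes, while Hk2, Vegfa, Adm and Ankrd37 are among the members below their means there and at passage 4 of mouse_285.

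Passage 3 of mouse_283 held the highest value of 20 of the 32 members and of 13 of the 14 enzymes. The share of all genes with their highest value there was not counted. The TMM factor of this library was 0.725, against 0.971 to 1.09 in the others, and a low factor raises all scaled levels of a library. As a share of gene reads, without that factor, the enzymes took 5.10% at passage 3 of mouse_283 and 3.95% at passage 4. They took 3.85% at passage 4 of mouse_285 and 2.52% to 3.15% in the other 8 libraries. At passage 2 the share was 2.71% in mouse_283, at the low end of its late libraries (2.71% to 3.10%), and 3.15% in mouse_285, above its late libraries (2.52% to 2.67%). In a bulk sample a change in the share of cells of a type and a change in RNA per cell cannot be told apart.

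**Figure D4:**
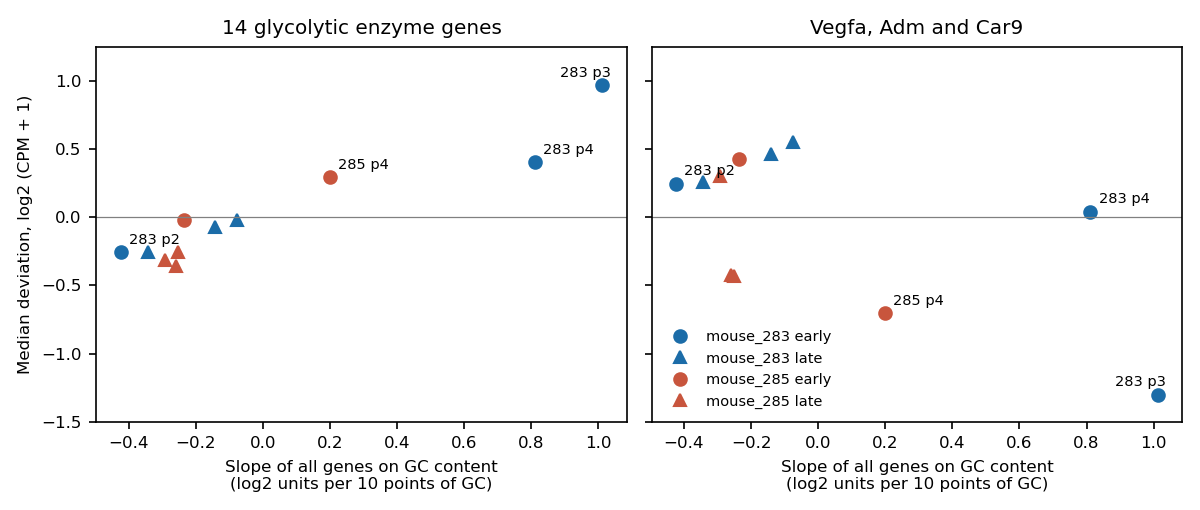
Median deviation of log2(CPM + 1) per library for the 14 glycolytic enzyme genes (left) and for Vegfa, Adm and Car9 (right), against the slope of all genes on GC content in that library; circles are early and triangles late, blue is mouse_283 and red is mouse_285. Slopes are relative to the mean over all libraries. The 3 libraries with a slope above 0 are the 3 highest for the enzymes, at 0.97, 0.40 and 0.30.

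The enzymes stood highest where the GC slope was highest. Their median deviation from their own means was 0.97 at passage 3 of mouse_283, 0.40 at passage 4 of mouse_283 and 0.30 at passage 4 of mouse_285, and between -0.36 and -0.02 in the other 8 libraries. After GC and length correction these 3 medians were 0.49, 0.13 and 0.10, with 13, 13 and 12 of the 14 enzymes above their own mean. The enzyme genes have a median GC content of 53.1%, the 32 members 52.3% and all tested genes 50.1%. The part of GC content in the enzymes' levels was not tested beyond these corrected values.

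Of the secreted and surface targets, Vegfa and Adm were low at passage 3 of mouse_283 and passage 4 of mouse_285, where the enzymes were high, and Car9 had its 2 highest values in these libraries, so the median of the 3 genes in the plot against GC slope does not describe Car9. Vegfa, the main growth factor for blood vessels, stood at 300.3, 88.3 and 133 CPM at passages 2, 3 and 4 of mouse_283 and at 309 and 141 CPM at passages 2 and 4 of mouse_285, and late libraries ran from 240.4 through 308 to 338 CPM. The low libraries were the 3 of passages 3 and 4. The log2 change was 0.60 (SE 0.30, adjusted p = 0.24), and it was 0.19 when passages 3 and 4 of mouse_283 were left out. Adm encodes the vasodilator peptide adrenomedullin. It was at 4.42 CPM at passage 3 of mouse_283 and 3.27 CPM at passage 4 of mouse_285, the lowest libraries, at 14.9, 22.4 and 21.0 CPM in the other early libraries and at 6.08 to 27.1 CPM late (log2 change 0.25, SE 0.49, adjusted p = 0.749).

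Car9 encodes carbonic anhydrase IX, which handles acid at the cell surface. It had 604 CPM at passage 3 of mouse_283, 333 to 360.2 CPM in the other early libraries and 246 to 349.6 CPM late, with a log2 change of -0.40 (SE 0.17, adjusted p = 0.185). Adm, Ankrd37, Hk2 and Vegfa were thus low together at passage 3 of mouse_283 and passage 4 of mouse_285, where 13 enzyme genes were high. After GC and length correction the log2 deviations at these libraries were -1.64 and -1.70 for Adm, -1.98 and -2.10 for Ankrd37, -1.32 and -1.24 for Hk2 and -1.36 and -0.70 for Vegfa. At passage 4 of mouse_283, the other library with a steep GC slope, corrected deviations were 0.66 for Adm, 0.15 for Ankrd37, 0.52 for Hk2 and -0.86 for Vegfa. These 4 genes were singled out after their values were seen, and the labels give nothing that sets these libraries apart. Further members were below their means at passage 3 of mouse_283 and passage 4 of mouse_285. Among them, corrected deviations were -1.27 and -0.89 for Ddit4, -0.70 and -0.59 for Egln3 and -0.59 and -0.48 for Egln1. The share of all genes that were low in both libraries was not counted.

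Among the other genes that act on mitochondria, Pdk1, the kinase that keeps pyruvate out of them, had its 3 lowest values at passages 3 and 4 of mouse_283 and passage 4 of mouse_285 (132, 182 and 203 CPM) and lay between 255 and 319 CPM elsewhere. Its log2 change was 0.41 (SE 0.21, adjusted p = 0.24), and 0.13 after GC and length correction. Bnip3, which marks mitochondria for removal, was lowest in the same libraries, at 138, 182 and 161 CPM, against 193 to 322 CPM elsewhere (log2 change 0.31, SE 0.20, adjusted p = 0.34). It has a GC content of 41.6%, and 62.4% of its 50-base stretches occur in another gene, so its count is uncertain. Its change was -0.08 after correction. Higd1a, which encodes a hypoxia-induced protein of the inner mitochondrial membrane, spanned 42.9 CPM at passage 2 to 124 CPM at passage 3 of mouse_283 (log2 change 0.03, SE 0.23, adjusted p = 0.94), with 30.7% of its stretches shared.

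The collagen prolyl hydroxylase subunits, which stabilise collagen and are HIF targets, had fold changes of opposite sign that did not pass the test. P4ha1 lay between 49.7 and 98.6 CPM early and between 66.6 and 93.5 CPM late (log2 change 0.15, SE 0.21, adjusted p = 0.666). P4ha2 stood at 57.0, 75.0 and 69.2 CPM at passages 2, 3 and 4 of mouse_283 and at 45.7 and 61.5 CPM at passages 2 and 4 of mouse_285, with late libraries from 36.5 to 53.4 CPM (log2 change -0.44, SE 0.16, adjusted p = 0.147). In each mouse the late libraries of P4ha2 lay below the early ones. From CPM per kb of transcript, the share of P4ha1 in the pair was 34.0%, 41.6% and 38.2% at passages 3 and 4 of mouse_283 and passage 4 of mouse_285, and 53.3% to 60.4% in all other libraries.

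The 4 oxygen-sensing genes had no call, and none had an unadjusted p under 0.05. Hif1a, the gene of the alpha subunit that responds most widely to hypoxia, stood at 54.8, 10.4 and 8.88 CPM at passages 2, 3 and 4 of mouse_283, at 40.8 and 36.2 CPM in early mouse_285 and from 36.6 through 45.7 to 51.7 CPM late. The libraries with the steep GC slope were the low ones, and Hif1a has a GC content of 41.3%. Its log2 change was 0.56 (SE 0.40, adjusted p = 0.374), 0.24 after GC and length correction and 0.03 without these libraries. After correction Hif1a deviated by -0.42 and -0.69 at passages 3 and 4 of mouse_283 and by -0.02 to 0.22 elsewhere. HIF-1 alpha is set mainly by protein breakdown, and protein was not measured.

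Epas1, which encodes HIF-2 alpha, lay between 23.4 and 46.9 CPM early and between 19.5 and 42.4 CPM late (log2 change -0.07, SE 0.25, adjusted p = 0.872). The prolyl hydroxylase genes sense oxygen, and Egln3 is itself a HIF target. Egln1 stayed between 127.7 and 183 CPM over all 11 libraries, with a log2 change of 0.06 (SE 0.14, adjusted p = 0.803). Egln3 ran from 295 CPM at passage 4 of mouse_285 to 680.3 CPM at passage 13 of mouse_283, with a log2 change of 0.05 (SE 0.24, adjusted p = 0.91).

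Between the mice, 0 of the 32 members were called by edgeR with the stage in the model, against 0.0776% of all genes (11 of 14172). At an unadjusted p under 0.05 there were 2, Hk1 and Slc2a1, both lower in mouse_285, against 5.15% of all genes. Log2 differences, mouse_285 against mouse_283, were negative for 28 of the 32 members (median -0.21) and for all 14 enzymes (median -0.24). Of all tested genes 50.3% were negative. Passage 3, where the enzymes stood highest, was sampled in mouse_283 only. At passage 2 the median deviation of the enzymes was -0.26 in mouse_283 and -0.02 in mouse_285, while at passages 4, 11, 12 and 13 it was higher in mouse_283. Hk1 lay between 103 and 202 CPM in the 6 libraries of mouse_283, at 107.9 and 114 CPM early in mouse_285 and between 65.7 and 75.5 CPM late in mouse_285. The log2 difference, mouse_285 against mouse_283, was -0.68 (SE 0.17, unadjusted p = 0.00138, adjusted p = 0.263 by edgeR), and DESeq2 called it (-0.69, adjusted p = 0.0234). For Slc2a1 it was -0.35 (SE 0.15, adjusted p = 0.863). The interaction of stage and mouse was called for 0 of the 32 members and for 0 of 14172 genes (0.0%), and Ndufa4l2 was the single member with an unadjusted p under 0.05, against 2.13% of all genes. Within mouse_283, 1 member was lower late (Ndufa4l2) and 0 were higher, against 1.09% and 0.332% of all genes, or 1.42% changed, and 9 members had an unadjusted p under 0.05, against 18.8%. Within mouse_285, 0 members were called by edgeR (0.0% of all genes), and 5 had an unadjusted p under 0.05, against 5.38%.

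Levels of different genes were compared per kb of transcript, with the median length of a gene's coding transcripts as its length. On these lengths Gapdh had the highest median over the 11 libraries, 4822 CPM per kb, followed by Aldoa (2745), Eno1 (2025), Pkm (1702.5) and Ldha (1631). Epas1 had the lowest median, 5.31 CPM per kb, below Ndufa4l2 (6.28) and Hif1a (8.95). With the longest transcript as the length instead, a choice added after the data were seen, Aldoa came first (2678), before Eno1 (2025) and Gapdh (1866), so the first rank of Gapdh depends on its length, which is 1273 bases in the one case and 3289 in the other. The ranges of neighbours in the first order overlapped for every pair except Gpi1 and Ndrg1. All genes were read in the same libraries, so an overlap of ranges does not show that neighbours were alike within a library. Gpi1, eighth in the order, did not go below 532 CPM per kb, and Ndrg1, ninth, did not go above 406.

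**Figure D5:**
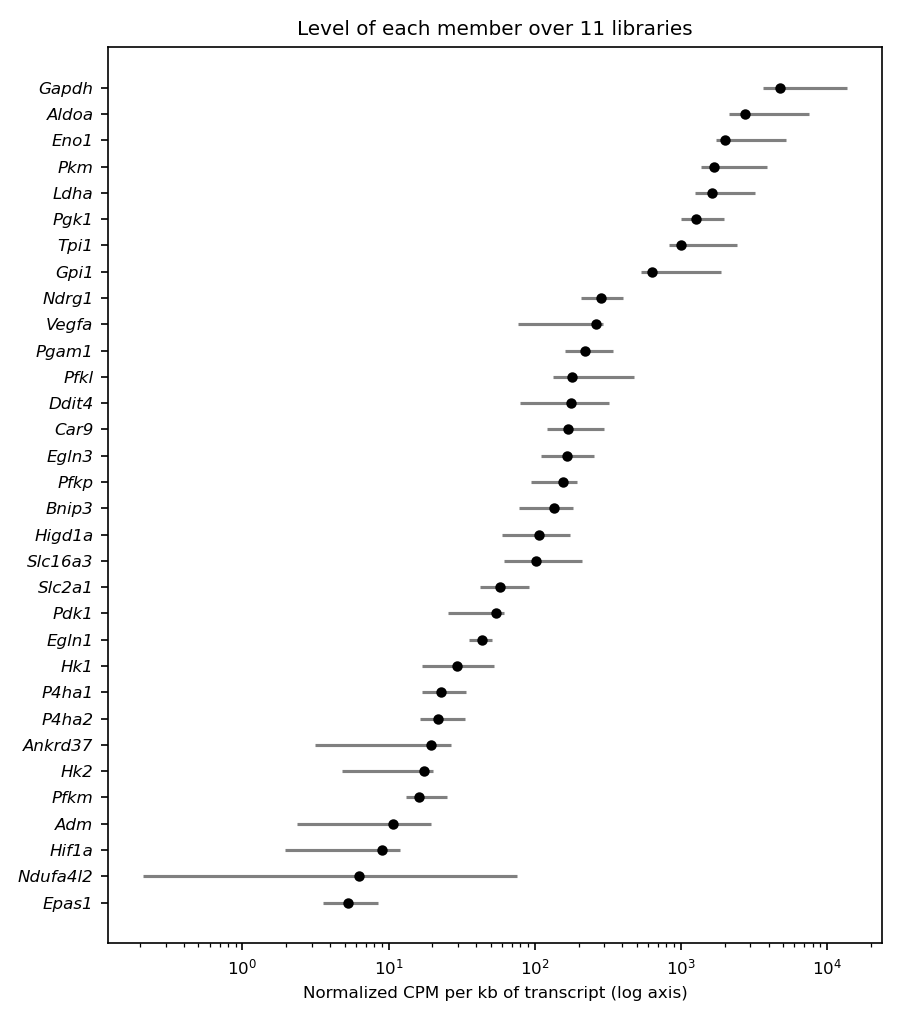
Level of each member as normalized CPM per kb of transcript on a logarithmic axis; points are medians and bars the range over 11 libraries. The upper 8 genes are glycolytic enzymes, from Gapdh (median 4822) to Gpi1 (637), and Ndufa4l2 has the widest range, from 0.21 to 75.8.

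Within enzyme families the members on the list were mostly the main form by CPM per kb. Pkm made up 88.9% to 94.8% of pyruvate kinase (Pkm and the liver form Pklr), and Ldha at least 99.655% of lactate dehydrogenase (Ldha and Ldhb). Hk2 was a minor hexokinase, with 11.0% ± 6.85 (SD, n = 5) early and 20.4% ± 2.58 (SD, n = 6) late, while Hkdc1, a hexokinase of the gut epithelium, made up 59.5% ± 9.50 (SD, n = 5) and 48.1% ± 6.82 (SD, n = 6). Slc16a3 was 78.8% ± 9.26 (SD, n = 5) early and 64.8% ± 2.03 (SD, n = 6) late of the pair with Slc16a1, another monocarboxylate transporter gene. Among pyruvate dehydrogenase kinases, Pdk1 went from 41.7% ± 15.5 (SD, n = 5) early to 61.5% ± 3.08 (SD, n = 6) late and Pdk2 from 48.4% ± 16.8 (SD, n = 5) to 27.8% ± 2.44 (SD, n = 6). Pdk2 exceeded Pdk1 at passages 3 and 4 of mouse_283 and passage 4 of mouse_285 and in no other library. At passage 2 the share of Pdk1 was 58.8% in mouse_283 and 55.5% in mouse_285, near its late range of 56.2% to 64.8%. That of Slc16a3 was 67.5% and 71.2%, against 61.9% to 67.9% late. GC content is 46.4% in Pdk1 and 56.9% in Pdk2, and 56.6% in Slc16a3 and 42.9% in Slc16a1. These shares were neither corrected for GC content nor tested.

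Beyond the members, 57 further genes of the same pathways were listed and 55 were tested, Hk3 and Eno2 being too low. Of these, 1 was higher and 5 were lower late, against 0.706% and 2.34% of all genes, and the median log2 change was -0.02. Stc2, which encodes the secreted glycoprotein stanniocalcin, stood at 55.2, 79.9, 69.3, 32.005 and 32.1 CPM in the early libraries and between 77.4 and 127.5 CPM late, with overlap at passage 3 of mouse_283 (log2 change 1.10, SE 0.18, adjusted p = 0.009). Pfkfb4, whose enzyme sets a regulator of phosphofructokinase, stood between 63.8 and 85.7 CPM early and between 34.6 and 49.4 CPM late, without overlap (log2 change -0.89, SE 0.15, adjusted p = 0.0103).

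Among the others that fell, 3 encode intestinal or liver forms of sugar-handling proteins. They were the hexokinase gene Hkdc1 (log2 change -0.90, SE 0.20, adjusted p = 0.0306), Pklr (-0.90, SE 0.16, adjusted p = 0.0113) and the sodium-glucose cotransporter gene Slc5a1 (-0.98, SE 0.18, adjusted p = 0.0144). Pklr stood between 480.01 and 736 CPM early and between 244 and 458 CPM late, and Slc5a1 between 487 and 741 CPM early and between 192 and 419.6 CPM late, both without overlap. Hkdc1 overlapped, with 181 to 338 CPM early and 109 to 189 CPM late. The call of Hkdc1 was lost without 8 of the 11 libraries in turn, and that of Pklr without passage 4 of mouse_285 (adjusted p = 0.0527), while Pfkfb4, Slc5a1 and Stc2 kept theirs in all 11 such fits. Among the listed oxygen-sensing and pyruvate-fate genes, 9 and 15, none was called.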

How the data were processed

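Bulk RNA sequencing counts from 11 organoid libraries were analysed. The authors deposited a table of read counts per gene for each library, with an unstranded column and 1 column per strand, and the submitters' processing notes name Trimmomatic, STAR and the mouse build mm9. Versions and the annotation release are not given in the sources used here. The strand columns held 50.0% to 50.2% of stranded reads, so the unstranded counts were used, and reads of a gene and of an antisense partner cannot be told apart. The passage in each table's name was higher by 1 than in its sample title, and titles were used. Summary lines that name no gene were left out: unmapped reads (4.76% to 10.2%), multimapping (5.92% to 8.78%), in no gene (3.77% to 11.7%) and ambiguous (3.11% to 4.03%).

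Symbols were matched for 32620 of 37310 identifiers. Genes were filtered with filterByExpr, scaled by TMM and tested with the quasi-likelihood F test of edgeR 4.0.16 (two-sided, R 4.3.3, Benjamini-Hochberg adjustment), with the mouse as a term since libraries of both stages come from the same animal, so that the mouse is the block. The smallest chi-square per degree of freedom between any 2 libraries was 15.1 over 55 pairs, so none was counted as a duplicate. GC content and length came from the GENCODE annotation of a later build than the files and were known for 13709 tested genes (96.7%); the correction fitted a spline (5 degrees of freedom) in each library. Alternatives were DESeq2 1.42.0, other size factors, no filter, no mouse term, each library left out, and passages 3 and 4 of mouse_283 left out. The procedure was tested on simulated data. All 32 members are named, and of the other pathway genes those past the threshold, at most 6 per comparison by smallest p, of which 1 is counted but not reported here. The members and lists were chosen with earlier results of these data known.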

Additional observations from a re-analysis of the deposited data

Results flagged for a closer look

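Of 64 groups of members and stages examined for a library far from the others, 3 stood out, all at passage 3 of mouse_283, where chance flags about 1 group in 20. Gapdh was at 17488 CPM there, against 5825 to 8409.6 CPM in the other early libraries. Ndufa4l2 was at 70.8 CPM, against 22.7 to 29.8 CPM. Car9 was at 604 CPM, against 333 to 360.2 CPM. This library has the steepest GC slope of the series (1.01 log2 units per 10 points), and after GC and length correction the log2 deviation from the gene's mean there went from 1.39 to 1.17 for Gapdh, from 3.01 to 1.95 for Ndufa4l2 and from 0.87 to 0.28 for Car9. The corrected values at passage 2 of the same mouse were -0.22, 2.24 and 0.23, so Ndufa4l2 was no longer highest at passage 3. Without this library the log2 changes late against early were -0.42 for Gapdh, -3.77 for Ndufa4l2 and -0.23 for Car9.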

How the results depend on the processing

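Over the members and the 6 other genes past the threshold, 565 of 645 recomputed fold changes kept their direction and their side of the threshold, 40 lost a call, 24 gained one and 16 changed sign, all of the last in genes that were not called. Ndufa4l2 kept its call in all 16 edgeR alternatives, while DESeq2 gave it no p because of an outlier count. The count of members called late against early (3) was 6 without a low-count filter and 1 to 21 with a single library left out, the 21 without passage 2 of mouse_283, and it was 3 with no replicate block, so leaving the mouse out of the model changed no call of a member, while that of Stc2 (adjusted p = 0.0575) was lost. The count over all genes (432) was 1343 by DESeq2, 1819 without a filter, 697 without passages 3 and 4 of mouse_283, 992 after GC and length correction and 173 to 4872 with a library left out. Between the mice, members called (0) were 1 by DESeq2 and 1 without a filter, and all genes (11) were 126, 207, 107 and 46 in the same order of 4 alternatives and 3 to 74 with a library left out. For the interaction, members (0) were 1 without a filter and 0 to 3 with a library left out, and all genes (0) were 16, 65, 5 and 1 in that order and 0 to 2314 with a library left out. Within mouse_283 members called (1) were 3 without a filter, 3 without passages 3 and 4 of mouse_283 and 1 to 21 with a library left out, and within mouse_285 (0) they were 1 (Ndufa4l2) and 3 (Ndufa4l2, Gapdh and Slc16a3) in these first 2 alternatives. The cause of these moves was not tested.

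Signs changed for members near 0. After GC and length correction Bnip3 was at -0.0837, P4ha1 at -0.15 and Epas1 at 0.0155, and without passages 3 and 4 of mouse_283 P4ha1 was at -0.0627 and Egln3 at -0.10. With a single library left out the range was -0.12 to 0.26 for Higd1a, -0.0227 to 0.52 for Ddit4, -0.19 to 0.13 for Epas1, -0.0018 to 0.11 for Egln1 and -0.0746 to 0.26 for Egln3. Ndrg1 lost its call with other size factors (adjusted p = 0.0527) and without a filter (0.0838). Depth limits Ndufa4l2 most among the members, with 6 reads in its lowest library.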
